A study of Mus musculus with 10 samples.

Results

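A stretch of mouse chromosome 12 rich in multi-copy genes is described here by its DNA methylation in spermatogonia of mouse pups. Its members were all cytosines that both libraries covered with at least 5 reads between positions 18000001 and 24000000 (chr12:18000001-24000000, mm10), on both strands, which gave 7511 cytosines in 5536 CpGs of 6745376 cytosines in the whole table. The following 6 Mb (chr12:24000001-30000000) held 14286 cytosines and served for comparison. Members were thus chosen by position and by read depth, and the stretch itself was picked with the methylation levels of these libraries already known, so its mean levels, depths and mean differences are given as a description without a test. Tests across the whole table were run at single cytosines, tiles and gene starts only, and their calls are no independent support for the choice of the stretch.

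The study compared spermatogonia that expressed an ID4-EGFP reporter and were sorted by antibody staining for TSPAN8, a tetraspanin of the cell surface. The TSPAN8-high fraction held the most strongly stained of these cells and the TSPAN8-low fraction the most weakly stained. Both came from male pups at postnatal day 6 of the strain LT-11B6, which carries an Id4-eGfp transgene on a C57BL/6 background, so both fractions carried the reporter. Each fraction gave 1 library from 300 ng of DNA of 5 pooled sorts, made by reduced-representation bisulfite sequencing (RRBS, which sequences short restriction fragments after bisulfite has converted unmethylated cytosines) with paired reads of 50 bp after digestion with BfaI, MseI and MspI. The 8 chromatin samples of the series were not analysed here. With 1 library per fraction there was no error between replicates, and every test below compares 2 libraries, not conditions.

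Methylation of cytosines in CpG pairs is copied at each cell division, and in mammals most CpGs outside CpG-rich gene starts carry it. In male germ cells it is erased before birth and laid down again in prospermatogonia, so that spermatogonia of pups already hold a methylated genome. Recently duplicated genes lie in copies of nearly the same sequence, and a short read from such a gene can match several of its copies.

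The sequence of the gene starts shows what multi-copy means here. RefSeq promoters of 300 bases (250 before the start and 50 after it, assembly GRCm38.p6, the mm10 build) were present for 46 genes of the stretch, with 56 promoters. The 6 printed here were chosen after their values were seen, because 3 belong to the genes with the largest library differences or their closest copy and the other 3 to unmethylated relatives. Each is written 5′ to 3′ on the gene's own strand, and capitals mark CGs of which the table listed at least 1 cytosine.
Gm10476 (chr12:22467206-22467505, minus strand): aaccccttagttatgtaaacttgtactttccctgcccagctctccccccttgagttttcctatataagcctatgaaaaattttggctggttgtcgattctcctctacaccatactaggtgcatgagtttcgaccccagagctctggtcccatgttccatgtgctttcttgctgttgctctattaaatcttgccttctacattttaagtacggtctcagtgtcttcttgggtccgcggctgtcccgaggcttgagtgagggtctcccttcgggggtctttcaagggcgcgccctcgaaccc
Gm40847 (chr12:18853074-18853373, plus strand): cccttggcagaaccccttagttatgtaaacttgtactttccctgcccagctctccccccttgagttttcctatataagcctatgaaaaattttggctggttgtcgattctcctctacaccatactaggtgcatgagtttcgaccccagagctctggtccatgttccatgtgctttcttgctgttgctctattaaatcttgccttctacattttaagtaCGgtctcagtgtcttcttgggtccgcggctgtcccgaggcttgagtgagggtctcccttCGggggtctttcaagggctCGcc
Gm40862 (chr12:23634796-23635095, minus strand): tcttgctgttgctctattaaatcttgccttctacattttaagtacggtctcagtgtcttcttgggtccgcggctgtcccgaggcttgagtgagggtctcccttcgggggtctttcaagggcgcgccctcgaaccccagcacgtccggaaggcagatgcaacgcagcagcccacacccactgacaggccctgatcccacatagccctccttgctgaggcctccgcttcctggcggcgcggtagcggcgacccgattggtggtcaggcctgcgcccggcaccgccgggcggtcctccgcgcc
Gm9257 (chr12:19606348-19606647, plus strand): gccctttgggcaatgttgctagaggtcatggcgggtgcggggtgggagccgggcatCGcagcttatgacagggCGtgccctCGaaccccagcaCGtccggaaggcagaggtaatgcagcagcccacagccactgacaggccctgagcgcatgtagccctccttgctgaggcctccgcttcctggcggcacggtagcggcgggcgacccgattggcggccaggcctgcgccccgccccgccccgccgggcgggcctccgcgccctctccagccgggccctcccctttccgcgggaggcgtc
Gm40881 (chr12:20311963-20312262, plus strand): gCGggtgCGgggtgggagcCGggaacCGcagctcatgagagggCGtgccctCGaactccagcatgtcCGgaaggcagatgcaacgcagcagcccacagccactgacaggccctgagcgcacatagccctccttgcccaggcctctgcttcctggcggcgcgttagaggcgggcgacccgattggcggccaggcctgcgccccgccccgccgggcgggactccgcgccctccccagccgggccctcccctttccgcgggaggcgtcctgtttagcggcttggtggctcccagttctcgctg
Gm38538 (chr12:22745685-22745984, minus strand): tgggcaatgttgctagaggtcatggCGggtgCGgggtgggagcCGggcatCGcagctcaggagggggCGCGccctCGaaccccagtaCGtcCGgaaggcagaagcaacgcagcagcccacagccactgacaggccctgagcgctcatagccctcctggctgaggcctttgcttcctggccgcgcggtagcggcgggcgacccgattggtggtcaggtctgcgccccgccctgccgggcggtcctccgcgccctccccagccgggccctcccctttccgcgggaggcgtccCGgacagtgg

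The Gm10476 and Gm40847 promoters shared 90.6% of their 15-base words although they lie on opposite strands and more than 3 Mb apart. The Gm40862 promoter started inside the same sequence and held 42.3% of the words of Gm10476, then ran on into CpG-rich sequence of the kind found at Gm9257, with which it shared 15% of words. Gm9257, Gm40881 and Gm38538 shared 25.5% to 34.3% of their words with each other. The 17-base run ccactgacaggccctga, present in 4 of the 6 promoters above, was found on either strand in 10 of the 56 promoters of the stretch and in 11 of 32851 promoters of the whole RefSeq table. The remaining holder was Gm21297 (chr12:24252389-24252688), which starts shortly beyond the end of the stretch. The motif CCAAT, searched on both strands (ATTGG on the other one) and able to overlap that run by at most 1 base, stood in 32 of the 56 promoters (57.1%) and in 37.4% of all promoters.

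Copies were common in the stretch by this measure. Of its 46 genes, 15 (32.6%) had a promoter that shared at least 50% of its words with the promoter of another gene, against 2 of 55 (3.64%) in the following 6 Mb, 0 of 50 in the preceding 6 Mb and 5.85% of genes in the whole promoter table. The block from Asap2 to Ywhaq lies inside the stretch. Its promoters shared at most 1.40% of words with any other gene, leaving aside the overlap of neighbouring promoters, as at Itgb1bp1 and Cpsf3. RefSeq placed 102 genes in the stretch, of which 36 were protein-coding, 43 were pseudogenes and 95 had placeholder symbols such as Gm, LOC or Rik names. The RRBS table listed a smaller share of CGs in near-copy promoters. Of the CGs in near-copy promoters of the stretch 6.88% were listed, against 25% in its other promoters, and over the whole promoter table the shares were 7.04% and 37.8%. Near-copy promoters of the stretch were also poorer in CGs, with 160 in 20 promoters of 773 in all 56. Promoters of like CG content were not compared.

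The stretch was thinly covered. It held 1.25 listed cytosines per kb, against 2.38 in the following 6 Mb and 2.29 in the preceding 6 Mb, and 12.2% of its 10-kb bins held none, against 0.333%. Both strands were listed at 35.7% of its CpGs and at 49.6% of those in the following 6 Mb. The median depth in the stretch was 9 reads per cytosine in TSPAN8-high cells and 9 in TSPAN8-low cells, and in the following 6 Mb 10 in both. Reads over its cytosines summed to 87805 in TSPAN8-high cells and 86009 in TSPAN8-low cells. Very deep cytosines, with more than 70 reads summed over both libraries (the 99th percentile of the whole table), made up 1.25% of the stretch and 0.756% of the following 6 Mb. How reads that match several copies were placed is not given in the sources used here.

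The stretch was less methylated than its surroundings in both fractions. The mean level over its cytosines was 61.1% in TSPAN8-high cells (SD 16.9 over 59 windows of 100 kb) and 62.8% in TSPAN8-low cells (SD 17.0). In the following 6 Mb it was 81.7% in TSPAN8-high cells (SD 14.0 over 60 windows) and 81.9% in TSPAN8-low cells (SD 13.8), and over all cytosines sequenced 74.3% and 74.4%, in the same order of fractions. The stretch therefore stood 20.5 percentage points below the following 6 Mb in TSPAN8-high cells and 19.1 below it in TSPAN8-low cells. Among 417 autosomal windows of 6 Mb it was the 23rd lowest in TSPAN8-high cells and the 30th lowest in TSPAN8-low cells, so other windows were lower still.

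The borders were set by the rule, and the 1-Mb segments on either side of them differed in level. The last 1 Mb before the stretch averaged 73.8% in TSPAN8-high cells and 74.0% in TSPAN8-low cells, and the first 1 Mb inside it 58.6% and 59.6%, in the same order of fractions. The last 1 Mb inside averaged 55.1% in TSPAN8-high cells and 57.8% in TSPAN8-low cells, and the first 1 Mb after it 70.1% and 70.7%, with 85.4% and 85.6% in the 1 Mb beyond. Between the ends, the segment of 1 Mb that starts at 19 Mb lay at 53.0% in TSPAN8-high cells and 56.0% in TSPAN8-low cells, the one at 20 Mb at 60.3% and 63.3%, and the one at 22 Mb at 49.1% and 52.8%. The segment at 21 Mb, which holds the block from Asap2 to Ywhaq, was the exception at 72.0% in TSPAN8-high cells and 71.6% in TSPAN8-low cells.

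**Figure D1:**
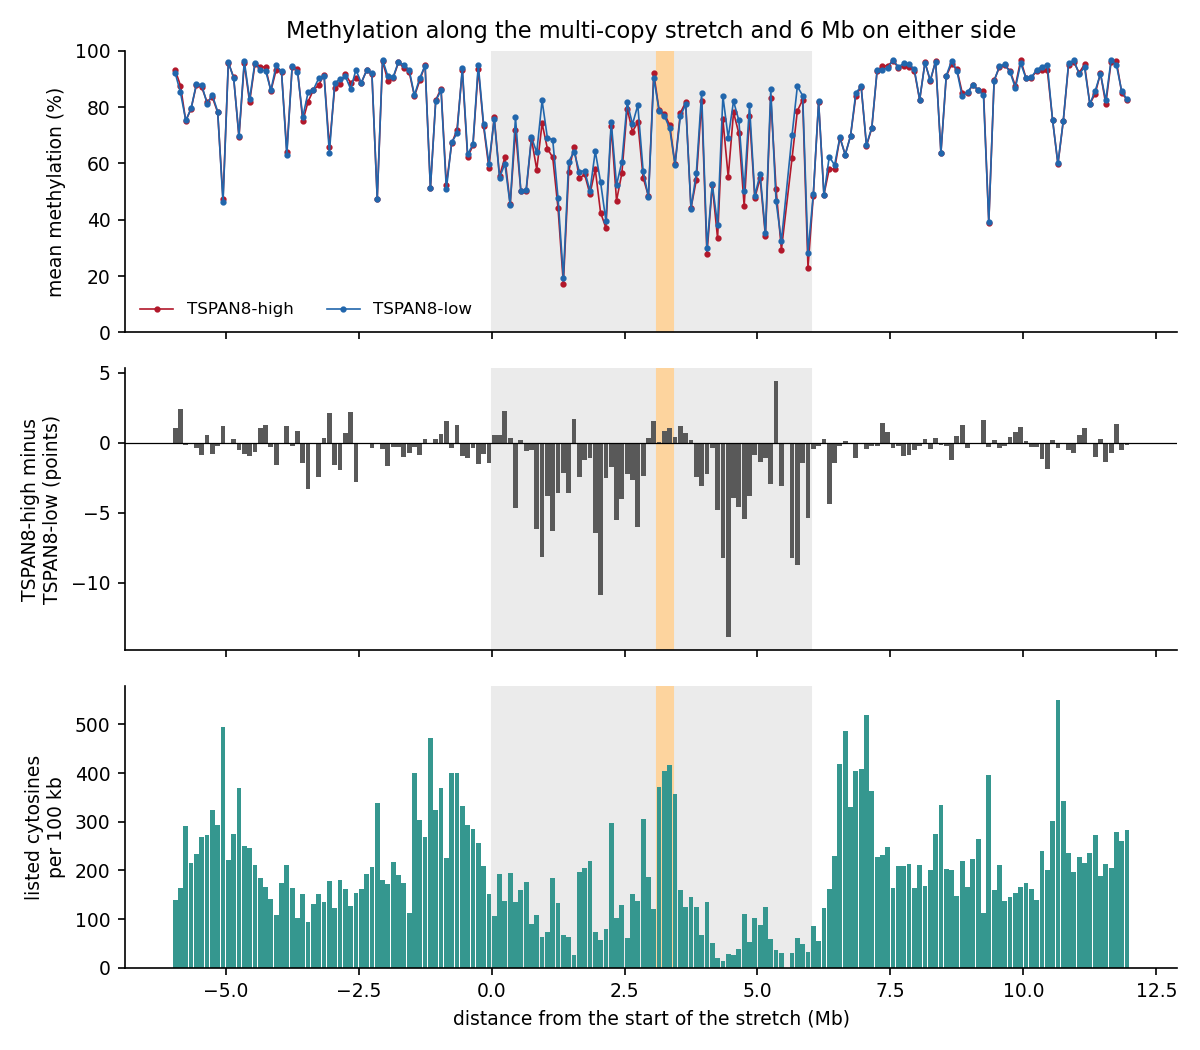
Mean methylation level (%) of TSPAN8-high and TSPAN8-low (top), TSPAN8-high minus TSPAN8-low in percentage points (middle) and listed cytosines (bottom) in windows of 100 kb, against the distance in Mb from the start of the stretch, with the stretch in grey and the block from Asap2 to Ywhaq in orange. Levels are lower and differences mostly below 0 inside the grey area outside the orange block, where the fewest cytosines are listed.

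That block, delimited after the values were seen, is a run of ordinary genes between copies (chr12:21111368-21417436). Its 1299 cytosines, 4.24 per kb, averaged 72.4% in TSPAN8-high cells and 71.8% in TSPAN8-low cells, and levels of 20% to 80% were found at 4.0% and 6.47% of them in the same fractions. The 4253 cytosines before the block averaged 58.6% in TSPAN8-high cells and 60.9% in TSPAN8-low cells, and the 1959 after it 59.1% and 60.9%. Levels of 20% to 80% were found before the block at 42.1% of cytosines in TSPAN8-high cells and 38.9% in TSPAN8-low cells, and after it at 22.4% and 20.8%.

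Intermediate methylation was frequent in the stretch. Levels of 20% to 80% were found at 30.4% of its cytosines in TSPAN8-high cells and 28.6% in TSPAN8-low cells, against 9.20% and 8.85% in the following 6 Mb. Levels above 80% were found at 45.4% in TSPAN8-high cells and 47.8% in TSPAN8-low cells, against 78.0% and 78.3%, and levels below 20% at 24.3% and 23.6%, against 12.8% in each fraction. Only 6 of the 417 autosomal windows of 6 Mb had a higher share of intermediate cytosines in TSPAN8-high, where the median window had 11.0%. The intermediate share was of like size at greater depth. At the 2558 cytosines that both libraries covered with at least 10 reads it was 27.1% in TSPAN8-high cells and 25.1% in TSPAN8-low cells. At the 440 covered with at least 20 reads it was 32.0% and 29.1%, in the same order of fractions, against 4.58% and 3.88% at 1004 such cytosines of the following 6 Mb. Deep cytosines were not spread evenly over the stretch. The 100-kb window that starts at 20.2 Mb held 298 cytosines at a mean of 19.7 reads in TSPAN8-high, and 58.7% of them were intermediate there. What part of the deeper sets comes from that window was not tested.

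**Figure D2:**
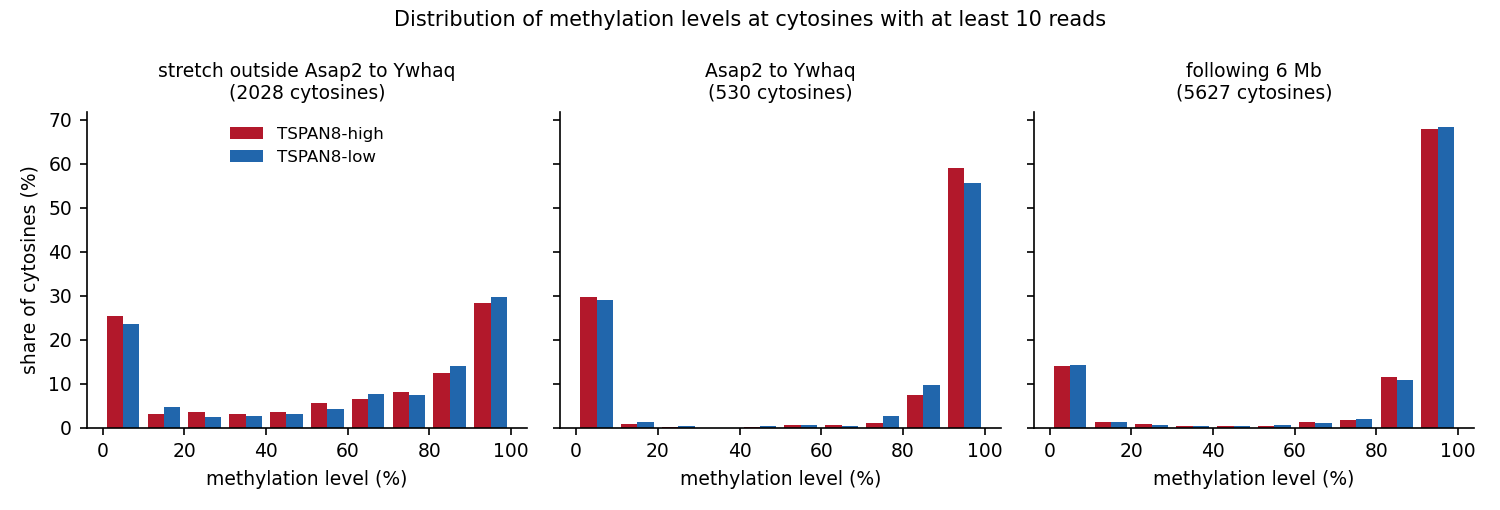
Share of cytosines (%, bars) by methylation level (%, in steps of 10) in TSPAN8-high and TSPAN8-low, at cytosines that both libraries covered with at least 10 reads, for the stretch outside the block from Asap2 to Ywhaq (2028 cytosines), the block (530) and the following 6 Mb (5627). Outside the block every step between 20% and 80% holds 2.51% to 8.14% of cytosines in either fraction, while in the block and in the following 6 Mb nearly all lie at the ends.

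Where 1 strand of a CpG was intermediate, the other often was too. Of 609 CpGs of the stretch with at least 10 reads on both strands in both libraries, 143 had an intermediate plus strand in TSPAN8-high, and in 103 of these (72.0%) the minus strand was intermediate, against 25.9% of all 609 minus strands. In TSPAN8-low this held for 89 of 130 (68.5%), against 25.1% of all minus strands. In the following 6 Mb it held for 35 of 103 (34.0%) in TSPAN8-high, against 6.59% of all minus strands, and for 34 of 95 (35.8%) in TSPAN8-low, against 5.38%. The strands differed on average by 9.13 points in the stretch and 6.07 in the following 6 Mb in TSPAN8-high. These averages were not taken at like levels, so they do not show the strands to be more or less alike in the stretch. Both strands of a CpG can come from the same fragments of DNA and the same pool of cells, so they are not independent measurements.

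Lower methylation was found where few or a moderate number of CpGs were listed nearby, and not where the most were. These classes count listed CpGs, not all CpGs of the sequence. Of the CGs in RefSeq promoters 21.2% were listed in the stretch and 29.9% in the following 6 Mb. The same class may therefore hold sequence of unlike CpG density in each. With at most 2 listed CpGs in the surrounding 200 bp, the stretch averaged 79.4% in TSPAN8-high cells and 81.4% in TSPAN8-low cells, against 92.6% and 92.8% in the following 6 Mb. With 3 to 9 it averaged 58.1% and 59.4%, against 75.2% and 75.5%. With 10 or more the order turned: the stretch averaged 6.22% in TSPAN8-high cells and 7.34% in TSPAN8-low cells, against 2.04% and 2.22%. These dense cytosines were also a larger part of the stretch, 15% of its cytosines against 6.37% in the following 6 Mb. Outside genes the stretch averaged 65.7% in TSPAN8-high cells and 67.8% in TSPAN8-low cells, and inside genes more than 1 kb from a RefSeq start 71.4% and 72.4%. That order came with the block from Asap2 to Ywhaq. Without the block, the stretch averaged 65.5% and 67.7% outside genes and 61.7% and 63.6% inside them, in the same order of fractions. In the following 6 Mb these classes averaged 86.4% and 86.7% outside genes and 90.4% and 90.6% inside them.

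Between the fractions, the stretch was slightly less methylated in TSPAN8-high. The difference of the mean levels, TSPAN8-high minus TSPAN8-low, was -1.61 percentage points in the stretch, -0.21 in the following 6 Mb and -0.17 in the preceding 6 Mb. With reads pooled over cytosines it was -2.61 in the stretch (95% Newcombe interval -3.07 to -2.15) against -0.56 in the following 6 Mb (-0.82 to -0.30) and -1.53 in the preceding 6 Mb (-1.80 to -1.26). Such intervals cover counting error only, and reads that span more than 1 CpG enter more than once. Of the 417 autosomal windows of 6 Mb the stretch had the most negative difference, in a set with a median of -0.12 and a largest value of 0.29. It was also among the 19 windows with the fewest cytosines, and what share of the difference comes with few cytosines was not tested. TSPAN8-high was lower in 43 of 59 windows of 100 kb (72.9%), against 39 of 60 (65.0%) in the following 6 Mb, 42 of 60 (70.0%) in the preceding 6 Mb and 56.3% of 25553 windows of the whole table. The share of windows was thus close to that of the preceding 6 Mb, while the median window difference was -2.37 in the stretch and -0.27 there.

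The difference was largest where methylation was intermediate. Cytosines of the stretch with a mean level of 20% to 80% (2092) averaged 56.6% in TSPAN8-high cells and 60.4% in TSPAN8-low cells, a difference of -3.81, against -1.03 for that class in the following 6 Mb and -0.12 in the whole table. Those below 20% differed by -0.74 and those above 80% by -0.78. The windows of 100 kb ranged from -13.9 points, at 55.2% in TSPAN8-high cells and 69.1% in TSPAN8-low cells over only 29 cytosines around Gm10476, to 4.39 points, at 50.9% and 46.5% over 36 cytosines around Gm20472. Outside the block from Asap2 to Ywhaq the unweighted mean differed by -2.08 points, and in the block by 0.62. With pooled reads the sign of the block turned, to -2.25 points (95% Newcombe interval -3.25 to -1.24), against -2.70 outside it (-3.21 to -2.19), so the contrast between them depended on the weighting. By the unweighted mean, cytosines of the block above 80%, at 96.8% in TSPAN8-high cells and 95.6% in TSPAN8-low cells, were higher in TSPAN8-high by 1.19 points. By the authors' deposited table, 125 cytosines of the stretch were classed as lower and 78 as higher in TSPAN8-high, together 2.70% of them. By the authors' deposited table, the same classes held 1.20% of the following 6 Mb and 1.45% of all cytosines, and cytosines of like level were not compared.

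**Figure D3:**
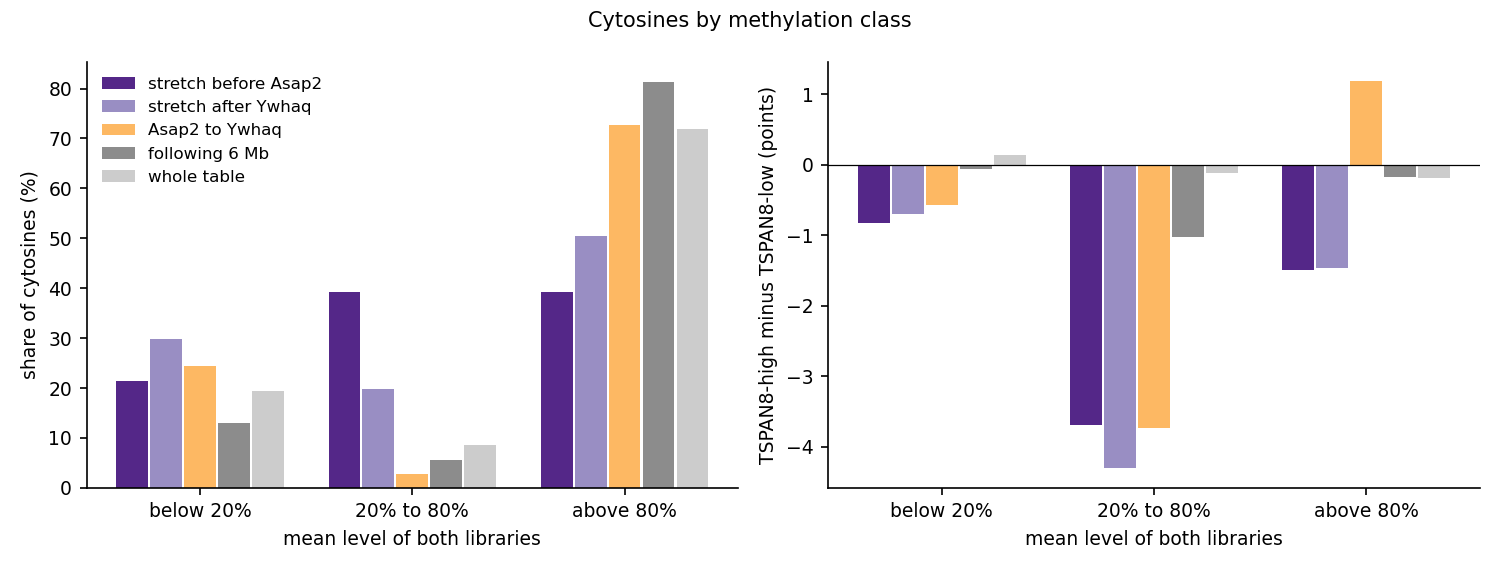
Share of cytosines (%, left) and TSPAN8-high minus TSPAN8-low in percentage points (right) by the mean level of both libraries, for the stretch before Asap2, the stretch after Ywhaq, the block between them, the following 6 Mb and the whole table. The multi-copy segments hold more cytosines of 20% to 80%, and their differences are below 0 in each class, -3.69 and -4.31 in that middle class. The bar of the block there, -3.73, rests on 37 cytosines.

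No single cytosine of the stretch passed Fisher's exact test, called at a Benjamini-Hochberg adjusted p below 0.05 over the whole table with a difference of at least 20 points. Over all chromosomes, 75 cytosines did, 0.00111% of those tested. At an unadjusted p below 0.05 the same test gave 204 of the 7511 cytosines (2.72%), against 1.46% of all cytosines, and cytosines of like level were not compared. In 1-kb tiles with at least 3 CpGs, called by the same test on pooled reads with a difference of at least 10 points, 4 of 625 tiles of the stretch passed (0.64%), against 0.268% in the whole table and 7 of 1281 in the following 6 Mb. Of the 4, 3 were higher in TSPAN8-high (0.138% of all tiles in the whole table) and 1 was lower (0.13%). Intermediate tiles, with a mean level of 20% to 80%, were 211 of the 625 (33.8%), against 71 of 1281 (5.54%). Of these 211, 3 were called (1.42%), which is close to the 1.47% of such tiles called in the whole table. At an unadjusted p below 0.05 the same test gave 26 of the 211 (12.3%), against 15.9% of such tiles in the whole table. The number of called tiles therefore said nothing particular about the stretch once tiles of like level were set side by side.

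The direction of the called tiles depended on the minimum: 1 higher and 2 lower were called with at least 10 reads per cytosine, 1 and 1 with at least 20, and 3 and 2 with at least 5 CpGs per tile. The tile chr12:20451001-20452000, inside Gm10479 and Gm29758, lay at 65.7% of 35 reads in TSPAN8-high cells and 20% of 45 reads in TSPAN8-low cells, the widest gap (adjusted p = 0.0284, Fisher's exact test). The tile chr12:23305001-23306000, inside the pseudogene Gm20472, lay at 71.1% of 76 reads in TSPAN8-high cells and 34.0% of 47 in TSPAN8-low cells (adjusted p = 0.0307, Fisher's exact test). Its 8 cytosines are among the 36 of the 100-kb window around Gm20472 given above, so tile and window are not separate results. The tile chr12:18226001-18227000, 2262 bp from Gm40879, lay at 29.9% of 144 reads in TSPAN8-high cells and 9.57% of 230 in TSPAN8-low cells (adjusted p = 0.00223, Fisher's exact test). The lower one, chr12:22466001-22467000, lay inside Gm10476 next to its start, at 21.4% of 173 reads in TSPAN8-high cells and 48.1% of 131 in TSPAN8-low cells (adjusted p = 0.00245, Fisher's exact test). Its 14 cytosines lie among the 15 of the Gm10476 start window described below and within the 100-kb window around Gm10476 given above. Those values are therefore not separate results. None of the 4 tiles rests on more than 14 cytosines, and with 1 CpG kept per 100 bp no tile of the stretch was called.

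Most gene start windows of the stretch were unmethylated, but few of its closest copies had a measured window. Windows of 1 kb either side of a start had at least 5 listed CpGs at 40 of the 102 genes, and some of these windows overlap or coincide. The start was the RefSeq start with the most listed CpGs. For genes without a RefSeq start it was the gene end with more listed CpGs, which may be either end of the gene. This choice favours CpG-rich windows, and how far the shares below depend on it was not tested. Of the 40, 30 were below 20% in both fractions, 1 was above 80% in both and 9 lay elsewhere, against 29, 12 and 5 of 46 in the following 6 Mb. Only 4 of the 15 genes with a near copy had a measured window, and of these only Gm9257 was below 20% in both fractions, while Gm10476, Gm40847 and Gm40862 were not. Gm40847 was below 20% in TSPAN8-high only, at 17.6%. These last 3 are related copies and not separate cases. Besides the shares given above, another start of Gm40847 shared 84.3% of words with another start of Gm40862. TSPAN8-high was lower in 25 of the 40. By Fisher's exact test with adjustment over all genes, 3 windows were called lower and 0 higher in TSPAN8-high (7.5% of the 40), against 0.852% of 28171 windows in the whole table, of which 0.479% were lower and 0.373% higher. In the following 6 Mb 2 of 46 were called, both lower in TSPAN8-high, and 11 of the 40 windows of the stretch (27.5%) had an unadjusted p below 0.05, against 15.9% of all windows. Unlike tiles, windows of like level were not set side by side, so these shares may reflect level and are not read as particular to the stretch.

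The 3 called windows belong to Gm10476, Gm40862 and Gm3993, placeholder names of protein-coding genes with no role given in the sources used here. Those of Gm10476 and Gm40862 lie at RefSeq starts. That of Gm3993 lies at a gene end, for want of a RefSeq start, and may not be at its start. Gm10476 had 46 methylated of 184 reads in TSPAN8-high cells (25%) and 70 of 139 in TSPAN8-low cells (50.4%), a difference of -25.4 points (Newcombe interval -35.3 to -14.7, and adjusted p = 0.00115 by Fisher's exact test). TSPAN8-high was lower at 13 of its 15 cytosines, of which 14 are on the plus strand, and the nearest of them lay 300 bp from the start. Most of its reads are those of the called tile chr12:22466001-22467000. Gm40862 had 91 of 235 reads in TSPAN8-high cells (38.7%) and 109 of 180 in TSPAN8-low cells (60.6%), a difference of -21.8 points (-30.9 to -12.2, and adjusted p = 0.00229 by Fisher's exact test), with 8 of 12 cytosines lower in TSPAN8-high. Gm3993, named after its values were seen, had 47 of 308 reads in TSPAN8-high cells (15.3%) and 74 of 280 in TSPAN8-low cells (26.4%), a difference of -11.2 points (-17.7 to -4.61, and adjusted p = 0.0363 by Fisher's exact test), with 18 of 27 cytosines lower. With 1 CpG kept per 100 bp, an alternative chosen after seeing the data, none of the 3 was called: by Fisher's exact test Gm40862 differed by -20.2 points with adjusted p = 0.146, and Gm10476 and Gm3993 kept fewer than 5 CpGs. Within 500 bp of the start Gm40862 differed by -9.80 points and was not called, and by the unweighted mean over its 12 cytosines it differed by -9.92 points (39.9% in TSPAN8-high, 49.8% in TSPAN8-low). With at least 10 reads per cytosine the differences were -41.2 points at Gm10476 and -19.8 at Gm3993, both larger by over 1.5 times, and -29.1 at Gm40862.

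Within these windows single cytosines spread widely. At Gm10476 they ran between 0% and 82% in TSPAN8-high cells and between 0% and 88% in TSPAN8-low cells, and at Gm40862 between 8% and 84% and between 0% and 78%.

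In the printed promoters of Gm10476 and Gm40862 none of the 10 and 25 CGs was listed, so both calls rest on cytosines outside the printed 300 bases. Gm40847, the copy of Gm10476, had 17.6% of 170 reads in TSPAN8-high cells and 27.5% of 189 in TSPAN8-low cells, which did not pass (adjusted p = 0.252, Fisher's exact test). In its printed promoter 3 of 8 CGs were listed, with 3 methylated of 15 reads in TSPAN8-high cells and 9 of 20 in TSPAN8-low cells. Whether reads of these copies were told apart cannot be seen in the deposited values.

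**Figure D4:**
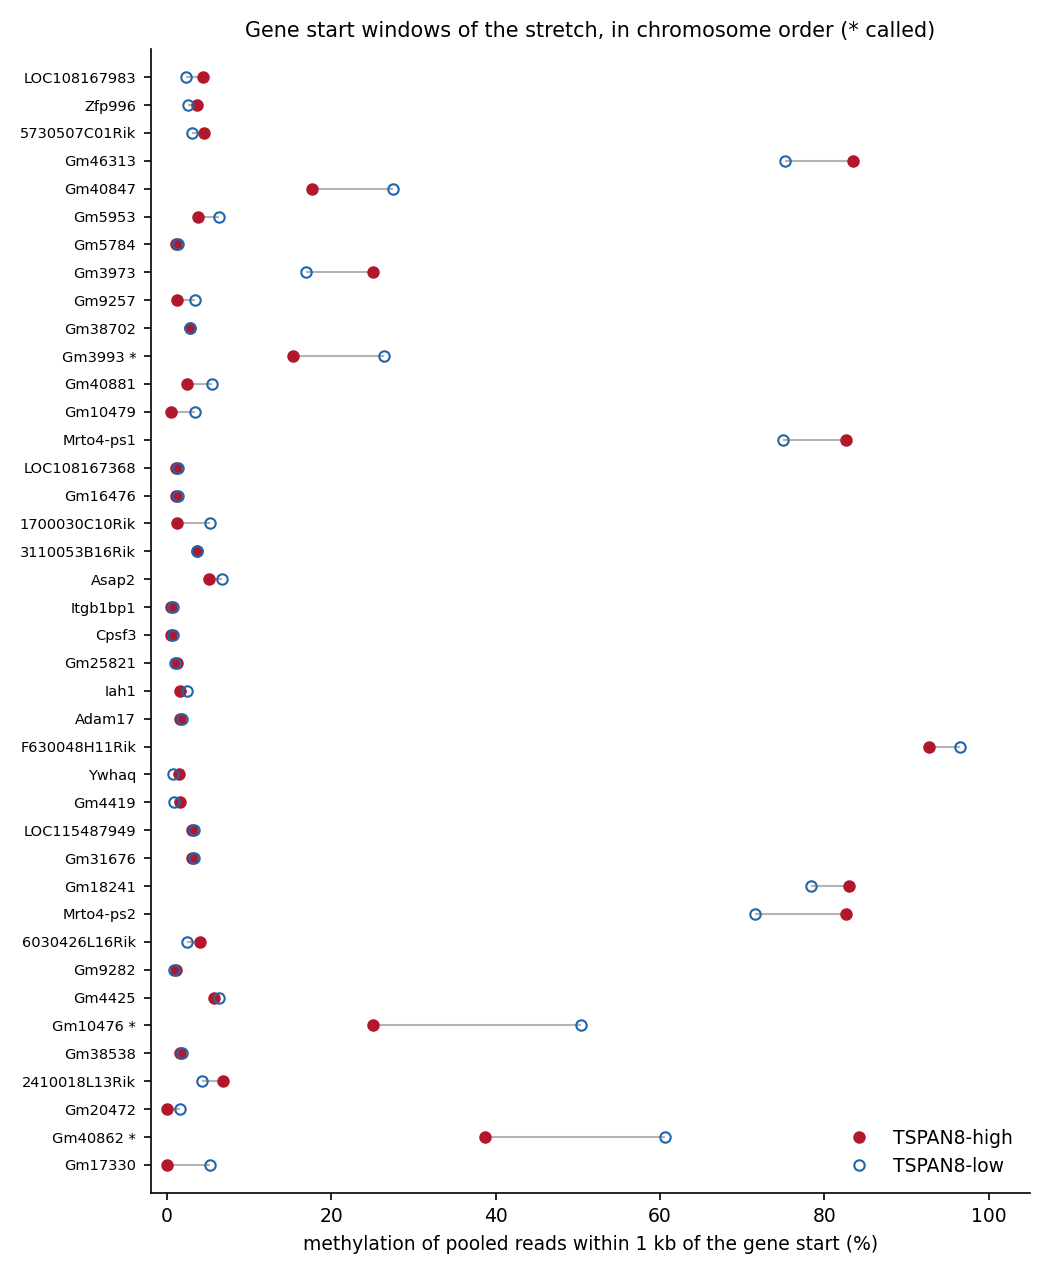
Methylation (% of pooled reads) within 1 kb of the start, or otherwise of a gene end, of 40 genes of the stretch. Genes run in chromosome order downwards, with filled points for TSPAN8-high, open points for TSPAN8-low and an asterisk at called windows. Of the 40 windows 30 lie below 20% in both fractions, and the gaps at Gm10476 and Gm40862 are the widest at 25.4 and 21.8 points.

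CpG-rich copies, a group formed after the values were seen, were of both kinds. They are 12 genes whose promoter holds at least 20 CGs and shares at least 25% of its words with another gene, and 10 of them had a measured window. Of the 10, 7 were below 20% in both fractions. Of the 3 among them that share at least 50% of words, Gm9257 was below 20% and Gm40847 and Gm40862 were not. Gm9257 had 5 methylated of 432 reads in TSPAN8-high cells (1.16%) and 15 of 450 in TSPAN8-low cells (3.33%), and Gm38538 had 8 of 519 (1.54%) and 8 of 453 (1.77%). Gm40881 had 15 of 618 reads in TSPAN8-high cells (2.43%) and 34 of 616 in TSPAN8-low cells (5.52%), and in its printed promoter 0 of 211 reads in TSPAN8-high cells and 9 of 289 in TSPAN8-low cells were methylated. None of these 3 differed by 10 points, and none had an adjusted p below 0.05. Gm3973, another holder of the 17-base run, ran the other way, with 25% of 320 reads in TSPAN8-high cells and 16.9% of 177 in TSPAN8-low cells (adjusted p = 0.288, Fisher's exact test). Gm10479, Gm17330 and 1700030C10Rik passed the adjusted p but not the minimum difference. Gm17330, also measured at a gene end, had 0 of 223 reads in TSPAN8-high, which allows a level of up to 1.35%, and 12 of 230 in TSPAN8-low (5.22%).

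The methylated windows, with the gene end taken as the start, were those of 4 pseudogenes, as RefSeq classes them, and of F630048H11Rik, which lay at 92.7% of 178 reads in TSPAN8-high cells and 96.6% of 233 in TSPAN8-low cells. The other measured pseudogene windows, of Gm9282, Gm16476, Gm20472, Gm4425 and LOC108167983, were below 20% in both fractions. Mrto4-ps1 had 82.7% of 98 reads in TSPAN8-high cells and 75% of 84 in TSPAN8-low cells, and Mrto4-ps2 had 82.6% of 46 and 71.6% of 116. Gm46313 had 83.5% of 97 reads in TSPAN8-high cells and 75.2% of 101 in TSPAN8-low cells, and Gm18241 had 83.0% of 147 and 78.4% of 176. All 4 methylated pseudogenes had the higher value in TSPAN8-high by pooled reads, and none was called. The unweighted mean over cytosines at Mrto4-ps1 ran the other way, at 73.9% in TSPAN8-high cells and 75.7% in TSPAN8-low cells, and at Mrto4-ps2 it was 84.7% and 84.0%, in the same order of fractions. They were named after their values were seen.

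The genes with established names had unmethylated starts in both fractions, and none of their windows was called. Ywhaq, which encodes an adaptor that binds phosphorylated proteins, had 1.40% of 1648 reads in TSPAN8-high cells and 0.727% of 1513 in TSPAN8-low cells. Itgb1bp1, whose protein binds integrin tails, and Cpsf3, the nuclease that cuts pre-mRNA before polyadenylation, share a start window with 0.466% of 1287 reads in TSPAN8-high cells and 0.769% of 1040 in TSPAN8-low cells. Adam17, the protease that sheds membrane proteins such as tumour necrosis factor, had 1.51% of 729 reads in TSPAN8-high cells and 1.78% of 674 in TSPAN8-low cells. Iah1, an esterase gene, had 1.54% of 712 and 2.41% of 581, in the same order of fractions. Asap2, which encodes a GTPase-activating protein for Arf proteins, had 5.14% of 506 reads in TSPAN8-high cells and 6.73% of 490 in TSPAN8-low cells around its CpG-richer end. Zfp996, a zinc finger gene near the start of the stretch, had 3.69% of 596 reads in TSPAN8-high cells and 2.56% of 391 in TSPAN8-low cells. Of the named list only Taf1b, a subunit gene of an RNA polymerase I factor, lay outside, in the following 6 Mb, at 3.21% of 280 reads in TSPAN8-high cells and 6.70% of 194 in TSPAN8-low cells. The Taf1b promoter shared 44.1% of its words with that of another gene.

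Some unmethylated CpG-rich tiles lay far from any annotated gene end. The tile chr12:23189001-23190000, with 53 CpGs and 40745 bp from Gm9292, had 0.816% of 858 reads methylated in TSPAN8-high cells and 1.09% of 736 in TSPAN8-low cells. The tile chr12:18610001-18611000, with 45 CpGs and 37990 bp from LOC115488002, had 1.23% of 406 and 2.34% of 427. The other 3 of the 5 low tiles with the most CpGs lay at Ywhaq, Gm9282 and Gm38702, at 0.452% to 2.20% in either fraction. Of 47 tiles of the stretch below 20% in both fractions with at least 10 CpGs, 26 lay more than 1 kb from a RefSeq start and 13 more than 1 kb from any gene end, against 17 and 10 of 44 in the following 6 Mb.

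The deepest tiles of the stretch were of another kind. Of 5 such tiles, 4 lay within 8 kb of each other before Gm32719, between chr12:20227001 and 20235000, at 25 to 37.6 reads per cytosine in TSPAN8-high cells and 19.0 to 36.4 in TSPAN8-low cells. Their levels were 62.4% to 85.1% in TSPAN8-high cells and 61.4% to 89.4% in TSPAN8-low cells. The remaining one, inside Gm30124 at chr12:20991001-20992000, had 41.7 reads per cytosine in TSPAN8-high cells and 51.7 in TSPAN8-low cells on 3 cytosines, with 1.60% methylated in TSPAN8-high cells and 8.39% in TSPAN8-low cells. None of the 5 was called.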

How the data were processed

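Cytosines of CpGs were read from the authors' deposited table of 2 RRBS libraries, 1 per fraction. The deposited level gives the fraction of reads that were methylated, and the deposited coverage is a read count per cytosine, never below 5. The deposited difference (unit other) and the deposited p-value were not used, and the authors' deposited classes were only counted. Bowtie, SICER and the builds mm10 and mm9 are named, per the submitters' processing notes, but not the assay they belong to. All 9797 cytosines inside RefSeq promoter windows of chromosome 12 stood at a C or G of mm10.

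Coverage times level, rounded, gave the methylated reads. Levels are unweighted means over cytosines unless said to be pooled. Fisher's exact tests (two-sided, numba 0.67.0, scipy 1.17.1, Python 3.11.15) were run over the whole table with Benjamini-Hochberg adjustment and tested on simulated data. Gene ends and promoters came from RefSeq, and copies were found by shared 15-base words on either strand. The members and lists were chosen with earlier results of these data known. Named were protein-coding genes without placeholder symbols, a list of neighbours taken as single-copy, and up to 4 measured members of each family of near copies. The called, deepest and lowest CpG-rich tiles were named too. Alternatives changed the read minimum, strand, weighting, depth, density, tile and window size, and comparison region.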

Additional observations from a re-analysis of the deposited data

How the results depend on the processing

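The difference of the stretch, TSPAN8-high minus TSPAN8-low (-1.61), was -1.59 with 10 reads required, -1.77 with 20, -1.61 without very deep cytosines and -1.86 with 1 CpG kept per 100 bp. It was -1.08 on the plus strand, -2.12 on the minus strand, -2.61 weighted by reads and -2.08 without the block from Asap2 to Ywhaq, which was chosen after seeing the data. The stretch minus the following 6 Mb (-20.5 in TSPAN8-high, -19.1 in TSPAN8-low) was -22.0 and -20.4 with 10 reads required, -18.9 and -17.6 with 20, -19.0 and -17.9 on the plus strand, -22.0 and -20.3 on the minus strand, and -22.9 and -21.0 without that block. Against the preceding 6 Mb it was -19.1 and -17.7, against the rest of chromosome 12 -15.6 and -14.1, and against the other autosomes -13.2 and -11.7. Within at most 2 listed CpGs in 200 bp it was -13.2 and -11.4 and within 3 to 9 -17.1 and -16.1. With 10 or more it turned to 4.19 and 5.12, and the cause was not tested. With 1 CpG kept per 100 bp the levels rose and the gap narrowed. The stretch then averaged 73.6% in TSPAN8-high cells and 75.5% in TSPAN8-low cells, and the following 6 Mb 89.0% and 89.2%.

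Called tiles of the whole table (1570) were 254 at 20 or more reads, 100 with 1 CpG kept per 100 bp and 900 at a minimum of 20 points; those of the stretch (4) were 2, 0 and 4, and 7 with no minimum difference. Called cytosines of the whole table (75) were 153 at a minimum of 10 reads, 176 at 20 and 177 with no minimum difference; in the stretch (0) they were 1, 2 and 0. Called gene start windows (3) were 0 with 1 CpG kept per 100 bp, an alternative chosen after seeing the data, in which Gm10476 and Gm3993 kept too few CpGs and Gm40862 differed by -20.2 points (adjusted p = 0.146, Fisher's exact test). Within 500 bp Gm40862 differed by -9.80 points and was not called, with at least 10 reads Gm10476 differed by -41.2 and Gm3993 by -19.8, by the unweighted mean Gm40862 differed by -9.92, and within 2 kb Gm40847 was called at -13.7 (adjusted p = 0.0480, Fisher's exact test). Genes with a near copy (15) were 27 at 25% of words and 10 at 75%. Differences that changed sign among these results were those of the following 6 Mb (0.0771 at 10 or more reads), Zfp996 (-1.30 within 2 kb), Iah1 (0.482 within 2 kb), Adam17 (0.711 within 2 kb, 0.983 at 10 or more reads) and Gm40847 (4.67 at 10 or more reads). Between unweighted and pooled values, so did those of the block from Asap2 to Ywhaq and Mrto4-ps1, given above. No window value could be had for Gm9257 at 10 or more reads. No paired analysis was possible because each fraction had 1 library, and for the same reason no replicate could be left out. At a median of 9 reads per cytosine, differences at single cytosines were not detectable unless large, and pooled p values are too small because a read is counted at each CpG it covers.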
